A study of Rattus norvegicus and Mus musculus with 34 samples.

Results

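The interferon-stimulated genes are described here as a list of 45 named genes, chosen by symbol, among 51912 genes in the table of the mouse macrophages and 20022 genes in the tables of rat healing tissue. All 45 were in the mouse table and 41 were in the rat tables. RAW264.7 cells, a mouse macrophage line labelled WT and grown in DMEM with 10% FBS, received 100 ng/ml LPS alone (6 samples) or together with 10 nM CGRP (5 samples) and were sampled after 6 h. Every macrophage sample used here had therefore received LPS, so that the response to LPS itself was not measured. Healing tissue of a periodontal bone defect was taken from male Sprague-Dawley rats of 6 to 8 weeks, labelled WT, in which the inferior alveolar nerve was intact (sensory nerve+) or transected (sensory nerve-). The tissue was collected on day 3, 7 or 14, from 4 rats in each group except sensory nerve+ on day 3, which had 3, and its label names mixed cells. Rats of both arms carried the defect, and a transected nerve loses more than its CGRP.

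Interferon-stimulated genes are the effector programme of interferon signalling. Interferons bind receptors that activate JAK kinases, and a complex with STAT2 and IRF9 then binds the interferon-stimulated response element (ISRE), whereas interferon-gamma acts largely through the gamma-activated site (GAS). In macrophages, LPS acts through TLR4 and the adaptor TRIF to induce interferon-beta, which acts back on the same cells. CGRP is a neuropeptide of sensory neurons whose receptor raises cAMP, and cAMP-responsive promoters often hold a CRE that is bound by CREB.

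Promoters of 31 of the 45 members were found in RefSeq for the rat (assembly GRCr8), each covering 250 bases before and 50 bases after the transcription start. The core of the ISRE, GAAANNGAAA on either strand, was present in 20 of these 31 promoters (64.5%) and in 3.92% of all 33469 rat promoters of the same length. GAS, TTCNNNGAA, was present in 8 of 31 (25.8%) and in 8.87% of all promoters, and the CRE, TGACGTCA, in 0 of 31 and in 1.83%. A match is a description of the letters and not a bound site. Sequences are given 5′ to 3′ for 5 members to which the results below return, with matches to the ISRE core or GAS in capitals. Cmpk2 (chr6:48802600-48802899, plus strand) is the member that passed the test in the macrophages, and the letters of none of the motifs are in its window. Rsad2 (chr6:48788071-48788370, minus strand) is its neighbour and Ifit3 (chr1:241527076-241527375, plus strand) had the highest fold change in the rats. Bst2 (chr16:18254918-18255217, minus strand), in which 2 ISRE cores and a GAS overlap one another, and Gbp5 (chr2:233910749-233911048, plus strand) had the smallest p among the members from day 3 to day 14 in the sensory nerve- and the sensory nerve+ rats, respectively.
Cmpk2: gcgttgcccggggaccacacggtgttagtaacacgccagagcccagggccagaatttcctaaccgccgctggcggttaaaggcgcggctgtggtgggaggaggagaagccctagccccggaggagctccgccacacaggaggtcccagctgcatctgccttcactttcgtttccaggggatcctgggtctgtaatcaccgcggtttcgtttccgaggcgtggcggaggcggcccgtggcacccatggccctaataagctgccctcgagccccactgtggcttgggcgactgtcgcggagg
Rsad2: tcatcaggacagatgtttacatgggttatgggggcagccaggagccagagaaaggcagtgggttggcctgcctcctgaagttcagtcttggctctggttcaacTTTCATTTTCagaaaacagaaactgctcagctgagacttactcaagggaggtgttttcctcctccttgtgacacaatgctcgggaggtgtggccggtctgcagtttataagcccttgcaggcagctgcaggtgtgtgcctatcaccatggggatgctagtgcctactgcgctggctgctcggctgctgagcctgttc
Ifit3: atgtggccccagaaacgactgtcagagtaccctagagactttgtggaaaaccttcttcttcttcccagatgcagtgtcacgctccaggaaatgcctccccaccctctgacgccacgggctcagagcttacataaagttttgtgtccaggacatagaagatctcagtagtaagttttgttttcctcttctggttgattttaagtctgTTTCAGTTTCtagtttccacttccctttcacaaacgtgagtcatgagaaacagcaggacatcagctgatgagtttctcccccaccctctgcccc
Bst2: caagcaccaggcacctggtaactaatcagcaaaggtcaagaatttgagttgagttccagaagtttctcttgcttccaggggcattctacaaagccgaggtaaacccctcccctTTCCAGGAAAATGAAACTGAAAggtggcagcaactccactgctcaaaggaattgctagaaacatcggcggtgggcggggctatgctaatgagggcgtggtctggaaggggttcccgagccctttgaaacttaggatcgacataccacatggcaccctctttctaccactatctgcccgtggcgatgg
Gbp5: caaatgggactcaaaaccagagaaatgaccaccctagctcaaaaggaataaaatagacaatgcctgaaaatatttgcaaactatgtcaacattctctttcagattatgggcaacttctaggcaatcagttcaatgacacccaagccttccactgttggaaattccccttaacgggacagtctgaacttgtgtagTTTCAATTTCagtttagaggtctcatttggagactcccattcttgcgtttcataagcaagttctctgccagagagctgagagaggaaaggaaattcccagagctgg

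Sequencing depth was 55614185 to 71538840 reads per macrophage sample and 14854598 to 18742423 counts per rat. Levels are given as CPM, the count as a rate of the library size, after scaling by trimmed mean of M-values (TMM). In the macrophages, 8 of 9 macrophage markers were in the table and summed to 3707 to 3882 CPM in the 11 samples. Haemoglobin and other erythroid transcripts took between 0.2% and 39.0% of all counts in the rats, and skeletal muscle markers summed to between 18.9 and 34063 CPM. In this bulk tissue, fewer cells of a type and less RNA per cell cannot be told apart. The sensory nerve- rats of day 7 came in a table of their own, so a difference between tables cannot be told apart from this group. Rat 2 of the sensory nerve- group of day 14 had the lowest level of its group in 39 of the 41 members, and rat 3 of the sensory nerve+ group of day 7 in 33. Both were also the rats with the lowest erythroid share of their groups, 0.2% and 0.26%. Rat 1 of the sensory nerve+ group of day 7 had a similar share, 0.30%, yet was the lowest in 0 and the highest in 17 of the 41 members. In the macrophages, LPS+CGRP sample 4 was the lowest of all 11 samples in 32 of the 45 members. On day 3, sensory nerve+ rat 2 was the lowest of its group in 26 of the 41 members and sensory nerve- rat 3 in 27. On day 14, sensory nerve+ rat 1 was the lowest in 22. Results that rest on the samples that were the lowest in most members are given with and without them.

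The comparison of LPS+CGRP with LPS asked what CGRP does to macrophages when given together with LPS. With CGRP the log2 fold change was below 0, by small amounts, for 44 of 45 interferon-stimulated genes, compared with 49.5% of the 13492 genes tested, and its median was -0.063 in the members and 0.0004 in all genes. With limma and Benjamini-Hochberg adjustment over all genes, 1 member passed the threshold of 0.05, Cmpk2, and it was lower; the share of all genes that passed was 0.0222%, or 0.0148% for lower genes. At an unadjusted p under 0.05 were 32 members, all of them lower, compared with 5.39% of all genes. The fold changes ranged from -0.190 for Mx1 to 0.002 for Eif2ak2 on the log2 scale, with a median SE of 0.021. In 13 members every LPS+CGRP sample lay below every LPS sample (Ifit1, Ifit2, Ifit3, Oasl1, Oasl2, Rsad2, Cmpk2, Mx1, Usp18, Gbp3, Gbp5, Ifi47 and Tap1), which was the case for 0.645% of all genes, and 0 members had every one above (0.467% of all genes). The mean log2 CPM of the 45 members was 7.74 to 7.79 in the LPS samples and 7.65 to 7.71 in the LPS+CGRP samples, so that the groups did not overlap.

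**Figure D1:**
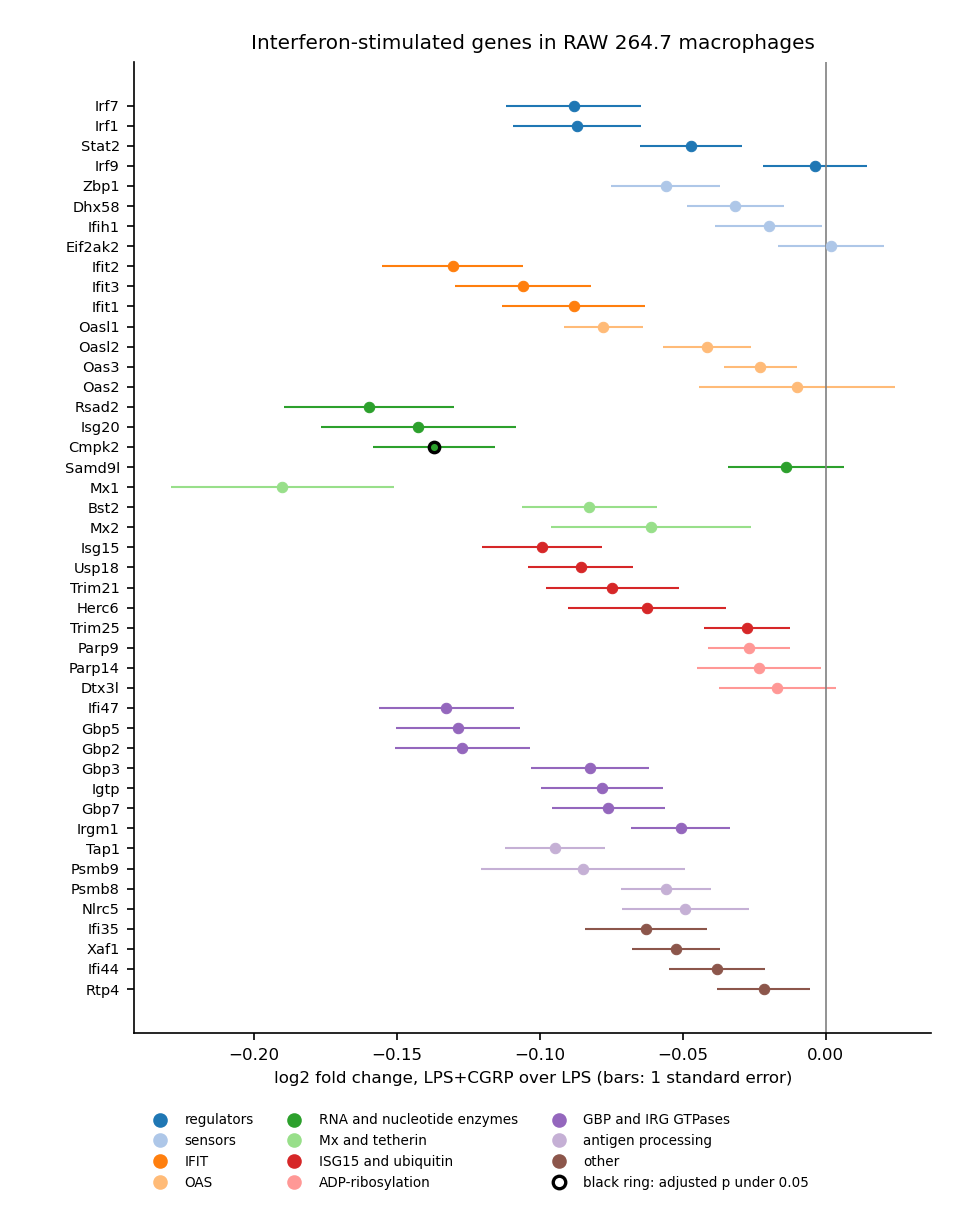
Log2 fold change of LPS+CGRP over LPS (x axis) for each of the 45 interferon-stimulated genes (y axis), grouped and coloured by role, with bars of 1 standard error and a black ring for an adjusted p under 0.05. All points but that of Eif2ak2 lie below 0, and Cmpk2 is the member with a ring.

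Among the enzymes that act on RNA and nucleotides, the median log2 fold change was -0.140 over 4 members. Cmpk2, a mitochondrial nucleotide kinase, lay between 559 and 605 CPM, with a median of 576, in the LPS samples and at 521, 539, 535, 498 and 537 CPM in the LPS+CGRP samples. All 5 LPS+CGRP samples were below all 6 LPS samples, and Cmpk2 fell by 9.06% (log2 fold change -0.137, SE 0.021, adjusted p = 0.0322). Rsad2 encodes viperin, which makes a chain-terminating nucleotide, and lies next to Cmpk2 on mouse chromosome 12 (GRCm38/mm10, chr12:26442746-26456452 on the minus and chr12:26469204-26479837 on the plus strand). Rsad2 lay between 624 and 685 CPM, with a median of 649.6, in the LPS samples and at 567, 603, 598, 546 and 609 CPM in the LPS+CGRP samples. Its groups did not overlap either, and its adjusted p of 0.0551 was just above the threshold (log2 fold change -0.160, SE 0.030). Isg20, an exonuclease, had a log2 fold change of -0.143 and Samd9l, a regulator of translation, of -0.014.

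The IFIT proteins bind viral RNA, and their median log2 fold change was -0.106. Ifit2 lay between 455 and 498 CPM, with a median of 476, in the LPS samples and at 433, 451, 446, 411 and 443 CPM in the LPS+CGRP samples. Ifit3 lay between 502 and 555 CPM, with a median of 516, in the LPS samples and at 481, 492, 489.9, 457 and 492 CPM in the LPS+CGRP samples. Ifit1 lay between 647 and 706 CPM, with a median of 657, in the LPS samples and at 609, 645, 638, 593 and 645 CPM in the LPS+CGRP samples. In each of these genes the lowest LPS sample was above the highest LPS+CGRP sample, and LPS+CGRP sample 4 was the lowest of all 11. Their log2 fold changes were -0.130 for Ifit2 (SE 0.025, adjusted p = 0.0587), -0.106 for Ifit3 (adjusted p = 0.136) and -0.088 for Ifit1 (adjusted p = 0.254). The 3 genes lie within 1 stretch of mouse chromosome 19, from Ifit2 (chr19:34550694-34576419) to Ifit1 (chr19:34640871-34650009).

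Oligoadenylate synthetases activate RNase L, and the OAS-like proteins are their relatives. Oasl1, which restrains the translation of Irf7, lay between 909 and 948 CPM, with a median of 939.8, in the LPS samples and at 878, 892, 891, 875 and 884 CPM in the LPS+CGRP samples. Oasl2 lay between 257 and 263 CPM, with a median of 259, in the LPS samples and at 255, 256, 256, 241 and 251 CPM in the LPS+CGRP samples. Neither gene had overlapping groups, although the gap was narrow for Oasl2. The log2 fold change was -0.078 for Oasl1 (SE 0.014, adjusted p = 0.0518) and -0.042 for Oasl2 (adjusted p = 0.397). Oas2 and Oas3 had log2 fold changes of -0.010 and -0.023.

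Mx proteins are dynamin-like GTPases and Bst2 encodes tetherin, which holds budding viruses on the cell. Mx1 had the lowest fold change of the list and lay between 21.2 and 23.8 CPM, with a median of 22.2, in the LPS samples and at 18.7, 19.9, 20.8, 17.6 and 20.3 CPM in the LPS+CGRP samples. Its groups did not overlap, but the adjusted p was 0.0882 (log2 fold change -0.190, SE 0.039). Bst2 lay between 305 and 339 CPM, with a median of 329, in the LPS samples and at 315, 299.9, 308, 305 and 303 CPM in the LPS+CGRP samples. These overlapped (log2 fold change -0.083, SE 0.024, adjusted p = 0.259), and Mx2 had a log2 fold change of -0.061.

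Isg15 encodes a ubiquitin-like protein that is conjugated to other proteins, and Usp18 removes it and also dampens signalling from the interferon receptor. Isg15 lay between 379.5 and 412 CPM, with a median of 398, in the LPS samples and at 374, 368, 384, 364 and 358 CPM in the LPS+CGRP samples. Usp18 lay between 539 and 580.0 CPM, with a median of 559.9, in the LPS samples and at 535, 522, 530.5, 515 and 522 CPM in the LPS+CGRP samples. The lowest LPS sample lay below the highest LPS+CGRP sample for Isg15 but not for Usp18. The log2 fold changes were -0.099 for Isg15 (SE 0.021, adjusted p = 0.104) and -0.086 for Usp18 (SE 0.018, adjusted p = 0.108). The ubiquitin ligases Trim21, Herc6 and Trim25 had -0.075, -0.062 and -0.027 on the same scale.

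Guanylate-binding proteins (GBPs) and immunity-related GTPases (IRGs) attack membranes around intracellular pathogens and respond strongly to interferon-gamma. All 7 had a log2 fold change below 0, with a median of -0.083. Gbp5 lay between 78.01 and 82.3 CPM, with a median of 80.2, in the LPS samples and at 74.2, 74.8, 72.6, 69.3 and 75.6 CPM in the LPS+CGRP samples. Ifi47, an IRG, lay between 95.5 and 104 CPM, with a median of 96.7, in the LPS samples and at 91.8, 88.9, 91.6, 85.2 and 89.3 CPM in the LPS+CGRP samples. Gbp2 lay between 113 and 123 CPM, with a median of 119.6, in the LPS samples and at 113, 106, 113, 106 and 107 CPM in the LPS+CGRP samples. The groups were apart in Gbp5 and Ifi47, and in Gbp2 the highest LPS+CGRP sample was above the lowest LPS sample. Each of the 3 had an adjusted p of 0.0518, with log2 fold changes of -0.129 for Gbp5, -0.133 for Ifi47 and -0.127 for Gbp2. The 4 GBPs form a cluster on chromosome 3 from Gbp5 (chr3:142493978-142522344) to Gbp2 (chr3:142620602-142638008). How reads that fit more than 1 of them were counted is not given in the sources used here.

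In antigen processing, Tap1 carries peptides into the endoplasmic reticulum and Psmb8 is a subunit of the immunoproteasome. Tap1 lay between 164 and 175 CPM, with a median of 170.1, in the LPS samples and at 161, 159.9, 162, 155 and 157 CPM in the LPS+CGRP samples. Psmb8 lay between 165 and 172 CPM, with a median of 168, in the LPS samples and at 164, 159, 166, 161 and 159.9 CPM in the LPS+CGRP samples. The groups were apart for Tap1 (log2 fold change -0.095, SE 0.017, adjusted p = 0.0518) and overlapped for Psmb8 (log2 fold change -0.056, SE 0.016, adjusted p = 0.245). Psmb9 (-0.085) and Nlrc5, the activator of MHC class I genes (-0.049), had log2 fold changes in the same direction. Psmb9 and Tap1 overlap at their starts on opposite strands, and how strand was used in counting is not given in the sources used here.

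The regulators had a median log2 fold change of -0.067. Irf7, the factor that amplifies type I interferon, lay between 801 and 879.9 CPM, with a median of 832, in the LPS samples and at 814, 783, 795, 775 and 771 CPM in the LPS+CGRP samples. Irf1, an activator that is itself induced by interferon, lay between 38.5 and 40.7 CPM, with a median of 40.2, in the LPS samples and at 38.7, 36.8, 38.2, 36.4 and 37.2 CPM in the LPS+CGRP samples. Both overlapped between the groups, with log2 fold changes of -0.088 (SE 0.024, adjusted p = 0.212) and -0.087 (SE 0.022, adjusted p = 0.204). The subunits of the STAT complex had log2 fold changes of -0.047 for Stat2 and -0.004 for Irf9.

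The sensors of foreign nucleic acid had the log2 fold changes nearest to 0 beside the ADP-ribosylation genes, with medians of -0.026 and -0.023. Zbp1, a sensor of Z-form nucleic acid, lay between 219.8 and 236 CPM, with a median of 231, in the LPS samples and at 230.0, 223, 219.7, 219 and 216 CPM in the LPS+CGRP samples. Dhx58, a relative of RIG-I, lay between 236 and 250.4 CPM, with a median of 242, in the LPS samples and at 241, 237, 243, 238 and 231 CPM in the LPS+CGRP samples. Groups overlapped in both, with log2 fold changes of -0.056 (adjusted p = 0.376) and -0.032 (adjusted p = 0.532). Parp9, which acts with the ubiquitin ligase Dtx3l, lay between 260.5 and 272 CPM, with a median of 265, in the LPS samples and at 265, 262, 261, 254 and 264 CPM in the LPS+CGRP samples. Parp14 lay between 542 and 582 CPM, with a median of 559, in the LPS samples and at 546, 578, 556, 531 and 556 CPM in the LPS+CGRP samples. Parp9 and Dtx3l overlap at their starts on opposite strands of chromosome 16. In each of Parp9 and Parp14, 4 of the 5 LPS+CGRP samples lay above the lowest LPS sample, with log2 fold changes of -0.027 and -0.023. Of the remaining genes, Xaf1, a promoter of cell death, lay between 97.9 and 102 CPM, with a median of 99.6, in the LPS samples and at 94.5, 97.1, 98.2, 94.3 and 96 CPM in the LPS+CGRP samples. Ifi35 lay between 151 and 165 CPM, with a median of 158, in the LPS samples and at 154, 150.1, 154, 148 and 150.4 CPM in the LPS+CGRP samples. Neither passed the test, with log2 fold changes of -0.052 (adjusted p = 0.275) and -0.063 (adjusted p = 0.376).

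**Figure D2:**
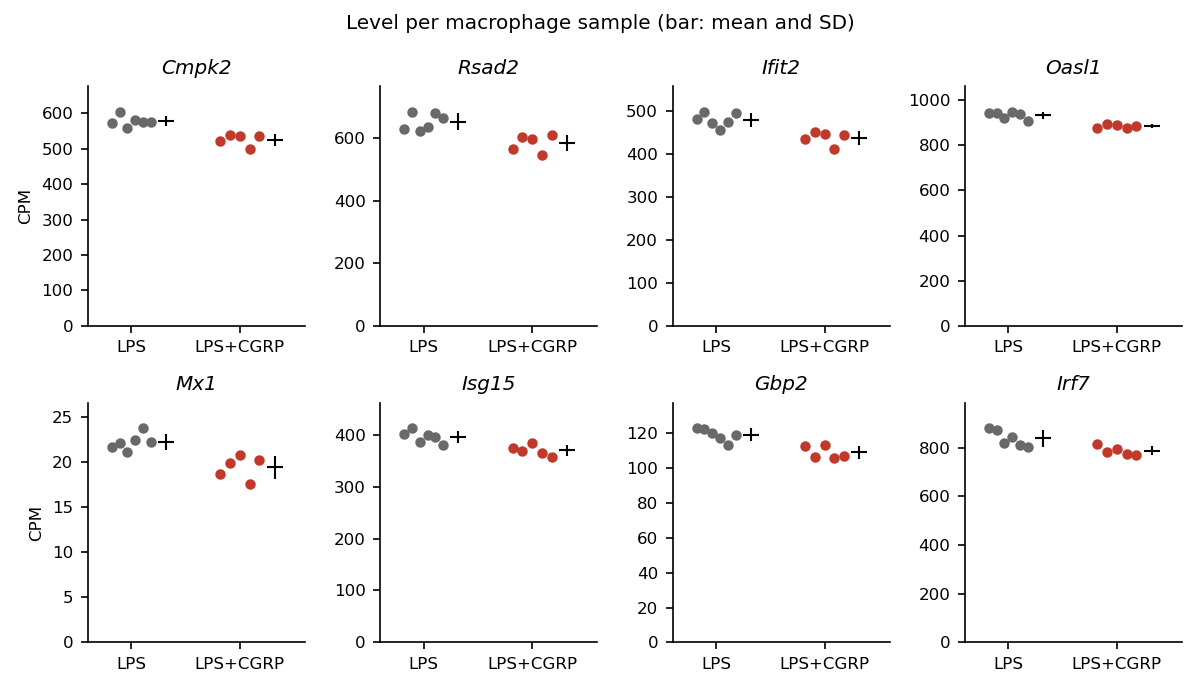
Level in CPM (y axis, from 0) of 8 interferon-stimulated genes in each of the 6 LPS samples (grey) and 5 LPS+CGRP samples (red), with the mean and SD of each group as a black cross. The red points lie below the grey points in Cmpk2, Rsad2, Ifit2, Oasl1 and Mx1, while a few points overlap in Isg15, Gbp2 and Irf7.

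Compared per kilobase of exon, the members differed widely in LPS-treated macrophages. Isg15 had the highest level (524 CPM per kb), followed by Bst2 (359), Oasl1 (358) and Ifit3 (297), and Mx1 had the lowest (5.88 CPM per kb, SD 0.234 over 6 samples). Bst2 and Oasl1 did not differ beyond their SDs of 14.9 and 5.99 CPM per kb.

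Genes upstream of the programme were given from lists. Of 13 interferons and receptors, 6 could be tested and 0 passed: Ifnb1, the gene of interferon-beta, was at a low level (means of 0.42 and 0.36 CPM with LPS and LPS+CGRP, log2 fold change -0.096, SE 0.068, unadjusted p = 0.18), and Ifnar2 had -0.022. Of 9 genes of JAK-STAT signalling 0 passed, with a median of -0.017 and a value of -0.039 for Tyk2. Of 15 tested genes that induce interferon, 0 passed (median -0.016). Of 26 other interferon-stimulated genes, 25 had a log2 fold change below 0 (median -0.052), compared with 49.5% of all genes. The 1 that passed (0.0222% of all genes passed) was Cxcl10, a chemokine that attracts T cells. It fell by 11.1% (log2 fold change -0.170, SE 0.026, adjusted p = 0.0322), from 453 ± 16.7 CPM (SD, 6 samples) to 403 ± 15.96 CPM (SD, 5 samples). Ccl5 had -0.111 (adjusted p = 0.0875).

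The median of the members was below 0 in every alternative run, whereas the number of members past the threshold varied. With the reads recovered from the deposited signal, edgeR's quasi-likelihood test called 0 members and 0 genes in all, with 32 members at an unadjusted p under 0.05, and DESeq2 called 16 members among 73 genes (0.54% of the genes it tested). Leaving out LPS sample 1, 2 or 5 or any LPS+CGRP sample gave 0 members, LPS sample 3 gave 1, LPS sample 4 gave 3 and LPS sample 6 gave 7, with a median log2 fold change between -0.077 and -0.054, the latter without LPS+CGRP sample 4.

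In the rats, the comparison of sensory nerve- with sensory nerve+ asked what the loss of the nerve does to healing tissue. On each day 0 members and 0 genes in all passed the test (0.0% of all genes, with edgeR's quasi-likelihood test). On day 3, 40 members were tested, 17 of them with a log2 fold change above 0 (48.1% of all genes), with a median of -0.029 and 1 at an unadjusted p under 0.05 (0.83% of all genes). On day 7, 20 of 41 were above 0 (48.8% of all genes), the median was -0.007, and 0 were at an unadjusted p under 0.05 (1.46% of all genes). On day 14, 33 of 41 were above 0 (53.4% of all genes) with a median of 0.243 against 0.025 for all genes, and again 0 were at an unadjusted p under 0.05 (9.33% of all genes). DESeq2 called 0, 1 and 95 genes on the 3 days (0.0%, 0.0068% and 0.65% of all genes), of which 0 were members. With 1 rat left out, the median on day 7 lay between -0.140 (without sensory nerve+ rat 3) and 0.243 (without sensory nerve+ rat 4), so that its sign rested on single rats. The same held on day 3, where the median lay between -0.139 (without sensory nerve+ rat 2) and 0.049 (without sensory nerve+ rat 3). Without sensory nerve- rat 3 the day 3 median was 0.025.

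On day 3 the smallest p belonged to Ifit3, which lay at 27.8, 16.9 and 13.97 CPM in the sensory nerve+ rats and at 14.6, 7.64, 6.99 and 11.6 CPM in the sensory nerve- rats. Its groups overlapped narrowly (log2 fold change -0.96, SE 0.33, unadjusted p = 0.023, adjusted p = 1.00). Irf7 lay at 108, 58.9 and 34.5 CPM in the sensory nerve+ rats and at 66.5, 32.3, 24.7 and 29.4 CPM in the sensory nerve- rats. Oas3 lay at 5.16, 5.57 and 4.16 CPM in the sensory nerve+ rats and at 4.58, 3.80, 2.70 and 2.52 CPM in the sensory nerve- rats. The highest rat was a sensory nerve+ rat in both, and the log2 fold changes were -0.84 (SE 0.46) and -0.57 (SE 0.29), with adjusted p = 1.00 for both. Gbp2 went the other way, at 26.6, 37.3 and 31.1 CPM in the sensory nerve+ rats and at 23.9, 211, 71.4 and 31.1 CPM in the sensory nerve- rats. This rested on sensory nerve- rats 2 and 3 (log2 fold change 1.41, SE 0.78, adjusted p = 1.00), and over the alternative fits its value lay between 0.40 and 1.73. On the same day, Isg15 had a log2 fold change of -0.38, Ifit1 of -0.67, Mx1 of -0.38 and Psmb8 of 0.12, with signs that turned in some alternative fits for Mx1 and Psmb8.

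On day 7 the smallest p among the members belonged to Ifi35, Tap1 and Irf1. Ifi35 lay at 19.2, 17.3, 16.97 and 22.3 CPM in the sensory nerve+ rats and at 19.1, 24.98, 27.3 and 24.4 CPM in the sensory nerve- rats. Tap1 lay at 45.6, 33.1, 18.6 and 49.2 CPM in the sensory nerve+ rats and at 33.4, 49.8, 50.9 and 62.01 CPM in the sensory nerve- rats. Irf1 lay at 37.7, 33.1, 28.1 and 32.4 CPM in the sensory nerve+ rats and at 44.2, 38.96, 37.6 and 30.4 CPM in the sensory nerve- rats. All 3 overlapped between the arms, with log2 fold changes of 0.33 (SE 0.16), 0.42 (SE 0.31) and 0.19 (SE 0.15), each with adjusted p = 1.00. The other fixed members had -0.07 (Irf7), -0.53 (Isg15), -0.42 (Ifit1), -0.09 (Mx1), -0.07 (Gbp2) and 0.29 (Psmb8) on the log2 scale, with signs that turned in some alternative fits for Irf7, Isg15, Ifit1 and Mx1.

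On day 14 the smallest p belonged to Irf1, Ifi47 and Isg20. Irf1 lay at 40.1, 79.5, 48.8 and 56.4 CPM in the sensory nerve+ rats and at 90.9, 55.5, 71.4 and 128 CPM in the sensory nerve- rats. Ifi47 lay at 31.3, 52.3, 45.8 and 45.3 CPM in the sensory nerve+ rats and at 69.5, 44.2, 45.7 and 101 CPM in the sensory nerve- rats. Isg20 lay at 8.14, 6.86, 13.96 and 18.9 CPM in the sensory nerve+ rats and at 17.7, 8.68, 39.6 and 30.99 CPM in the sensory nerve- rats. The highest rats were sensory nerve- rats in all 3 genes, yet the groups overlapped, with log2 fold changes of 0.60 (SE 0.29), 0.55 (SE 0.28) and 1.00 (SE 0.52) and an adjusted p of 0.519 each. The other fixed members had 1.08 (Irf7), 0.23 (Isg15), 1.11 (Ifit1), 0.23 (Mx1), 0.28 (Gbp2) and 0.46 (Psmb8), and all of these but Irf7 turned sign in at least 1 alternative fit. The sensory nerve- rats of day 14 covered a wide range: the mean log2 CPM of the members was 4.09 to 5.83 there and 4.57 to 5.14 in the sensory nerve+ rats. The median log2 fold change was 0.50 without sensory nerve- rat 2, -0.048 without sensory nerve- rat 4 and 0.158 without sensory nerve+ rat 1. When scaled by the library total instead of TMM, the median of all genes was -0.414 and that of the members -0.273, with 10 of 41 above 0, so the direction of the list at day 14 depended on the scaling, and relative to all genes the members lay 0.217 higher with TMM and 0.141 higher with the library total.

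Over all days together, with day as a term in 1 fit of 23 rats, 32 of 41 members had a log2 fold change above 0 (51.2% of all genes), with a median of 0.091, 0 past the threshold (0.0% of all genes) and 0 at an unadjusted p under 0.05 (5.11% of all genes). The smallest p were those of Ifi35 (0.22, SE 0.11), Tap1 (0.33, SE 0.17) and Irf1 (0.26, SE 0.15), with an adjusted p of 0.860 each. With the library total, 15 of 41 were above 0. The median was -0.016 without sensory nerve- rat 4 of day 14, so that its sign rested on a single rat. It was 0.024 without sensory nerve+ rat 3 of day 7 and 0.159 without sensory nerve- rat 2 of day 14. Without sensory nerve+ rat 1 of day 14 it was 0.027, without sensory nerve+ rat 2 of day 3 0.096 and without sensory nerve- rat 3 of day 3 0.136. The interaction of transection and day was tested directly and 0 members passed, 0 of them at an unadjusted p under 0.05 (3.0% of all genes), with the smallest p for Isg20 (unadjusted p = 0.12), Irf1 (0.14) and Gbp2 (0.15). A p that misses the threshold does not show that the arms were alike, and the median SE of a member was 0.28, 0.37 and 0.39 on days 3, 7 and 14, against 0.021 in the macrophages.

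**Figure D3:**
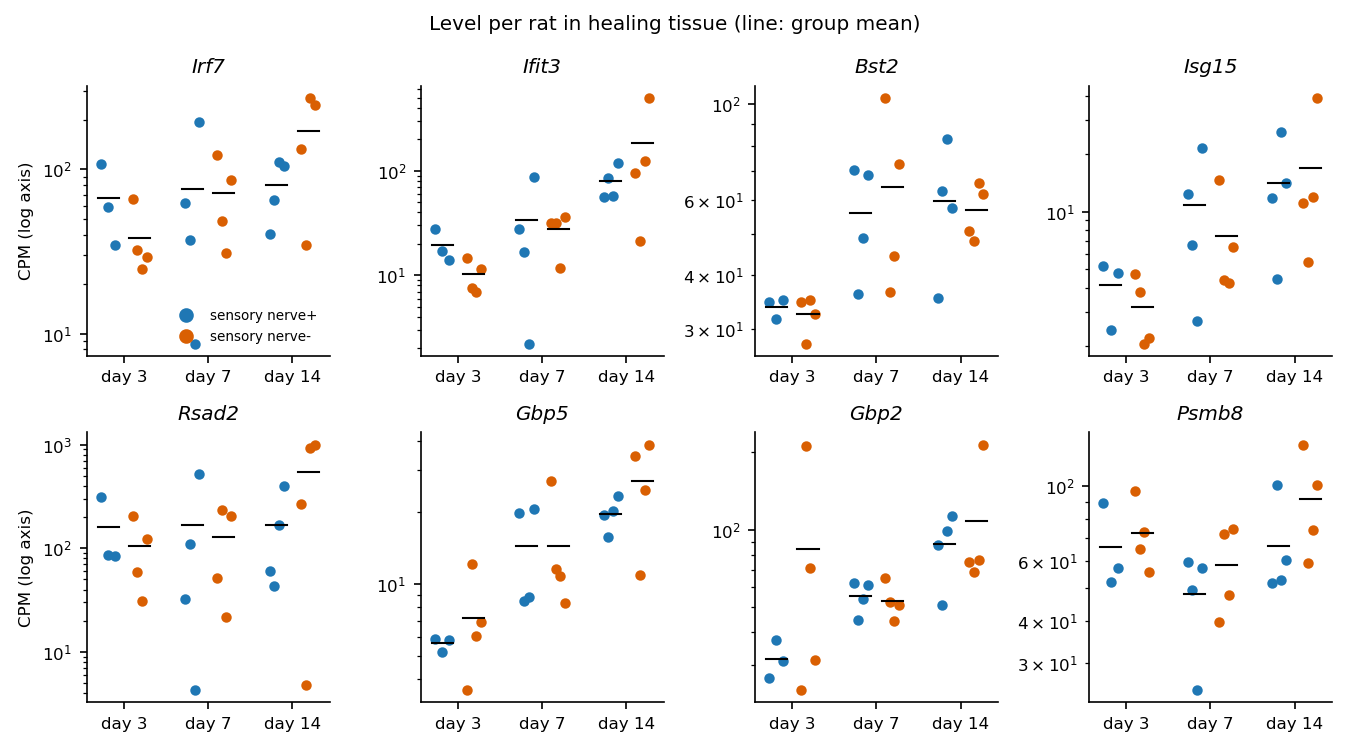
Level in CPM (log y axis) of 8 interferon-stimulated genes in each rat on days 3, 7 and 14 (x axis), blue for sensory nerve+ and orange for sensory nerve-, with the group mean as a line. The points of both arms overlap on every day, the group means of Ifit3 and Gbp5 are higher on day 14 than on day 3, and Rsad2 spans more than the others within each group of days 7 and 14.

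Comparing days within an arm asked when during healing the members were high. Most calls were made for day 14 over day 3. The comparisons of an arm share rats, and their values are given side by side. In sensory nerve+ rats, 40 of 41 members had a log2 fold change above 0 from day 3 to day 14 (50.2% of all genes), with a median of 0.84 against 0.003 for all genes. With edgeR's quasi-likelihood test 6 rose (2.69% of all genes rose, 5.78% changed, and 28.2% were at an unadjusted p under 0.05), which were Gbp5, Zbp1, Ifit3, Gbp2, Ifit2 and Xaf1, and 22 were at an unadjusted p under 0.05 and higher (14.1% of all genes). The sensory nerve- rats had 38 of 40 above 0 (47.1% of all genes), with a median of 1.04 against -0.048. There 24 rose (8.88% of all genes rose, 23.5% changed, and 38.8% were at an unadjusted p under 0.05), and 31 were at an unadjusted p under 0.05 and higher (16.9% of all genes). The 2 members below 0 in the sensory nerve- rats were Usp18 (-0.32) and Trim25 (-0.29), neither past the threshold.

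By role, from day 3 to day 14 in sensory nerve- rats, those that rose were 3 of 4 regulators, 1 of 4 sensors, 2 of 3 IFITs, 2 of 3 OAS genes, 1 of 3 RNA and nucleotide enzymes, all 3 of Mx and tetherin, 3 of 5 ISG15 and ubiquitin genes, 1 of 3 ADP-ribosylation genes, 2 of 4 GBPs and IRGs, 2 of 4 antigen processing genes and 4 of 4 others. Those of the sensory nerve+ rats were 1 sensor, 2 IFITs, 2 GBPs and 1 other. The difference between the arms in the number past the threshold was not tested as such, and the interaction above had 0 members past it.

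Among the IFITs, Ifit3 had the highest fold change. It lay at 14.6, 7.64, 6.99 and 11.6 CPM among sensory nerve- rats on day 3, at 31.9, 31.6, 11.7 and 36.4 CPM on day 7 and at 94.6, 21.2, 125 and 494 CPM on day 14. The sensory nerve+ rats lay at 27.8, 16.9 and 13.97 CPM on day 3, 27.98, 16.9, 2.22 and 87.2 CPM on day 7 and 55.8, 85.2, 57.3 and 119.9 CPM on day 14. Every rat of day 14 was above every rat of day 3 in each arm, but on day 7 sensory nerve+ rat 3 was below all others. Ifit3 rose from day 3 to day 14 by 2.04 on the log2 scale (SE 0.38, adjusted p = 0.0404) in sensory nerve+ and by 4.11 (SE 0.88, adjusted p = 0.0157) in sensory nerve- rats, where rat 4 alone reached 494 CPM. Ifit2 lay at 19.5, 11.4 and 19.5 CPM in the sensory nerve+ rats and at 20.9, 19.04, 15.3 and 15.5 CPM in the sensory nerve- rats on day 3. For day 7, Ifit2 lay at 65.2, 27.8, 16.7 and 66.5 CPM in the sensory nerve+ rats and at 73.3, 33.1, 30.04 and 31.2 CPM in the sensory nerve- rats, and on day 14 at 43.7, 39.4, 101 and 50.3 CPM in the sensory nerve+ rats and at 38.5, 22.1, 67.2 and 109 CPM in the sensory nerve- rats. All rats of day 14 were above all rats of day 3 in each arm. Ifit2 rose from day 3 to day 14 in both arms (1.82, adjusted p = 0.0478, and 1.69, adjusted p = 0.0284) and from day 3 to day 7 in sensory nerve- rats (log2 fold change 1.24, SE 0.32, adjusted p = 0.0461).

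Ifit1 varied widely between rats of a group and lay at 27.7, 32.8, 1.90 and 96.9 CPM in sensory nerve+ and at 50.7, 9.02, 13.8 and 283 CPM in sensory nerve- rats on day 14. On day 3 it lay at 33.7, 20.1 and 8.21 CPM in the sensory nerve+ rats and at 20.9, 14.1, 7.55 and 10.3 CPM in the sensory nerve- rats, and on day 7 at 19.99, 12.2, 1.97 and 67.1 CPM in the sensory nerve+ rats and at 23.1, 19.2, 5.96 and 27.5 CPM in the sensory nerve- rats. The groups overlapped in both arms, and Ifit1 did not pass the test from day 3 to day 14 (0.96, SE 1.06, and 2.70, SE 1.04, adjusted p = 0.0950, on the log2 scale). Expected counts can share reads between the IFIT genes. Oas3 rose in sensory nerve- rats (log2 fold change 3.49, SE 0.87, adjusted p = 0.0251), with 24.6, 4.23, 21.3 and 109 CPM on day 14.

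In the group of Mx and tetherin, Bst2 lay at 34.6, 31.6 and 34.9 CPM in the sensory nerve+ rats and at 34.6, 27.7, 34.96 and 32.5 CPM in the sensory nerve- rats on day 3. On day 7 it lay at 70.2, 36.2, 48.8 and 68.3 CPM in the sensory nerve+ rats and at 103, 36.6, 44.3 and 72.8 CPM in the sensory nerve- rats, and on day 14 at 35.4, 62.7, 82.9 and 57.4 CPM in the sensory nerve+ rats and at 50.8, 48.02, 65.7 and 61.98 CPM in the sensory nerve- rats. All rats of days 7 and 14 were above all rats of day 3 in both arms. Bst2 rose from day 3 to day 14 in sensory nerve- rats (log2 fold change 0.76, SE 0.14, adjusted p = 0.0106), and had 0.84 (adjusted p = 0.103) in sensory nerve+ rats. Mx1 lay at 8.56, 8.47 and 34.1 CPM in the sensory nerve+ rats and at 16.5, 17.8, 3.68 and 15.04 CPM in the sensory nerve- rats on day 3. For day 7, Mx1 lay at 76.2, 28.7, 3.46 and 85.7 CPM in the sensory nerve+ rats and at 78.4, 21.02, 56.3 and 26.4 CPM in the sensory nerve- rats, and on day 14 at 59.2, 36.3, 73.4 and 24.7 CPM in the sensory nerve+ rats and at 97.2, 15.2, 65.9 and 50.3 CPM in the sensory nerve- rats. In sensory nerve- rats all rats of day 7 were above all rats of day 3, whereas days 3 and 14 overlapped. In sensory nerve+ rats all days overlapped, with rat 3 on day 3 far above the other rats of its day. Mx1 passed the test in 1 of the 6 comparisons of days, day 14 over day 3 in sensory nerve- rats (log2 fold change 2.08, SE 0.63, adjusted p = 0.0460), with 1.78 (adjusted p = 0.0853) from day 3 to day 7 and 0.34 from day 7 to day 14.

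Among the ISG15 and ubiquitin genes, Isg15 lay at 5.23, 2.43 and 4.77 CPM in the sensory nerve+ rats and at 4.76, 3.80, 2.05 and 2.19 CPM in the sensory nerve- rats on day 3. For day 7, Isg15 lay at 12.3, 6.66, 2.69 and 21.3 CPM in the sensory nerve+ rats and at 14.6, 4.39, 4.25 and 6.55 CPM in the sensory nerve- rats, and on day 14 at 11.8, 4.45, 25.9 and 14.04 CPM in the sensory nerve+ rats and at 11.04, 5.47, 11.9 and 38.9 CPM in the sensory nerve- rats. In sensory nerve- rats every rat of day 14 was above every rat of day 3, and Isg15 rose (log2 fold change 2.34, SE 0.61, adjusted p = 0.0290). In sensory nerve+ rats the groups overlapped (log2 fold change 1.78, SE 0.60, adjusted p = 0.109). Trim21 and Herc6 passed the test from day 3 to day 7 in sensory nerve- rats. Trim21, an antibody receptor and ubiquitin ligase, lay at 20.9, 20.2, 16.2 and 23.2 CPM on day 3 and at 32.6, 31.6, 30.8 and 26.3 CPM on day 7, with no overlap (log2 fold change 0.58, SE 0.14, adjusted p = 0.0382). Herc6 lay at 10.2, 9.78, 5.13 and 6.90 CPM and at 60.3, 16.2, 17.8 and 21.6 CPM, also with no overlap (log2 fold change 1.86, SE 0.48, adjusted p = 0.0461). Usp18 followed another course: in sensory nerve- rats it lay at 17.4, 17.8, 22.8 and 10.97 CPM on day 3, at 31.3, 21.8, 40.4 and 34.1 CPM on day 7 and at 14.2, 10.6, 13.7 and 18.8 CPM on day 14. All rats of day 14 were below all rats of day 7, without passing the test (log2 fold change -1.15, SE 0.25, adjusted p = 0.104).

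Among the GTPases, Gbp5 lay at 5.88, 5.19 and 5.85 CPM in the sensory nerve+ rats and at 3.60, 12.2, 6.06 and 6.96 CPM in the sensory nerve- rats on day 3. On day 7 it lay at 19.9, 8.54, 8.85 and 20.6 CPM in the sensory nerve+ rats and at 27.04, 11.6, 10.8 and 8.35 CPM in the sensory nerve- rats, and on day 14 at 19.5, 15.7, 20.3 and 23.5 CPM in the sensory nerve+ rats and at 34.4, 10.9, 24.8 and 38.4 CPM in the sensory nerve- rats. Gbp5 rose from day 3 to day 14 in sensory nerve+ rats (log2 fold change 1.82, SE 0.20, adjusted p = 0.0225), with all rats of day 14 above those of day 3, and in sensory nerve- rats (log2 fold change 1.86, SE 0.48, adjusted p = 0.0274), where rat 2 of day 3 and rat 2 of day 14 overlapped. Gbp2 lay at 62.4, 44.7, 53.98 and 60.8 CPM in the sensory nerve+ rats and at 64.8, 52.7, 44.3 and 50.96 CPM in the sensory nerve- rats on day 7. On day 14 it lay at 87.2, 50.99, 99.2 and 113 CPM in the sensory nerve+ rats and at 75.02, 68.4, 76.2 and 214 CPM in the sensory nerve- rats, and its day 3 values are given above. In sensory nerve+ rats it rose from day 3 to day 7 (log2 fold change 0.86, SE 0.18, adjusted p = 0.0366) as the 1 member of 40 past the threshold there (4.88% of all genes rose, 6.67% changed), and to day 14 (log2 fold change 1.48, SE 0.30, adjusted p = 0.0422). It did not pass in sensory nerve- rats (0.30, SE 0.72), where rat 2 of day 3 lay above 3 of the 4 rats of day 14. Gbp3 lay between 0 and 1.75 CPM in all rats and was not tested in 5 of the 9 comparisons of 2 groups.

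Irf7 lay at 62.1, 37.4, 8.68 and 195 CPM in the sensory nerve+ rats and at 123, 48.6, 31.01 and 86.3 CPM in the sensory nerve- rats on day 7. On day 14 it lay at 40.3, 64.9, 111 and 105 CPM in the sensory nerve+ rats and at 134, 34.6, 271 and 245 CPM in the sensory nerve- rats, and its day 3 values are given above. Irf7 rose from day 3 to day 14 in sensory nerve- rats (log2 fold change 2.13, SE 0.61, adjusted p = 0.0386), in which rat 2 of day 14 lay within the range of day 3, and had 0.28 (SE 0.48) in sensory nerve+ rats. Irf1 lay at 46.03, 31.7 and 42.7 CPM in the sensory nerve+ rats and at 33.8, 29.4, 43.5 and 43.9 CPM in the sensory nerve- rats on day 3, and its later values are given above. Between days 7 and 14 all rats of day 14 were above all rats of day 7 in each arm, although neither difference passed the test (0.79, SE 0.21, adjusted p = 0.384, and 1.20, SE 0.26, adjusted p = 0.104). From day 3 to day 14 Irf1 rose in sensory nerve- rats (log2 fold change 1.15, SE 0.27, adjusted p = 0.0199). Stat2 had 0.46 (SE 0.19) from day 7 to day 14 in sensory nerve+ rats, at 65.2, 49.5, 41.2 and 62.3 CPM and 57.5, 88.8, 79.1 and 70.7 CPM.

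In antigen processing, Nlrc5 lay at 15.8, 11.4, 5.97 and 13.5 CPM among sensory nerve- rats on day 3, at 13.2, 18.3, 12.7 and 16.8 CPM on day 7 and at 54.4, 16.97, 40.4 and 57.6 CPM on day 14. Rat 2 of day 14 overlapped with day 7, and Nlrc5 passed the test from day 3 to day 14 (log2 fold change 1.82, SE 0.42, adjusted p = 0.0199) but not from day 7 (log2 fold change 1.48, SE 0.36, adjusted p = 0.104). Psmb8 lay at 88.98, 52.1 and 57.1 CPM in the sensory nerve+ rats and at 96.9, 65.2, 73.2 and 55.5 CPM in the sensory nerve- rats on day 3. On day 7 it lay at 59.7, 49.3, 24.9 and 57.3 CPM in the sensory nerve+ rats and at 39.7, 72.1, 47.5 and 74.7 CPM in the sensory nerve- rats, and on day 14 at 51.5, 100.5, 52.8 and 60.3 CPM in the sensory nerve+ rats and at 133, 59.01, 74.4 and 101 CPM in the sensory nerve- rats. It overlapped between all groups and did not pass in any comparison of days, with 0.03 and 0.29 from day 3 to day 14. Of the others, Zbp1 lay at 2.29, 1.81 and 2.41 CPM among sensory nerve+ rats on day 3 and at 5.57, 8.96, 7.70 and 6.48 CPM on day 14 and rose (log2 fold change 1.74, SE 0.28, adjusted p = 0.0332). Xaf1 lay at 7, 9.66 and 10.3 CPM and 13.99, 22.9, 24.4 and 19.7 CPM in the same rats and rose (log2 fold change 1.18, SE 0.26, adjusted p = 0.0491). Neither gene had overlapping groups. Ifi44 lay at 10.7, 21.8 and 20.9 CPM and 47.7, 29, 31.9 and 62.5 CPM among sensory nerve+ rats on days 3 and 7, with no overlap but no call (log2 fold change 1.31, SE 0.36, adjusted p = 0.0787). Ifi44 of sensory nerve- rats lay at 14.6, 17.3, 24.7 and 15.9 CPM on day 3 and 38.4, 30.7, 41.8 and 40.5 CPM on day 14 and rose (log2 fold change 1.01, SE 0.20, adjusted p = 0.0128).

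**Figure D4:**
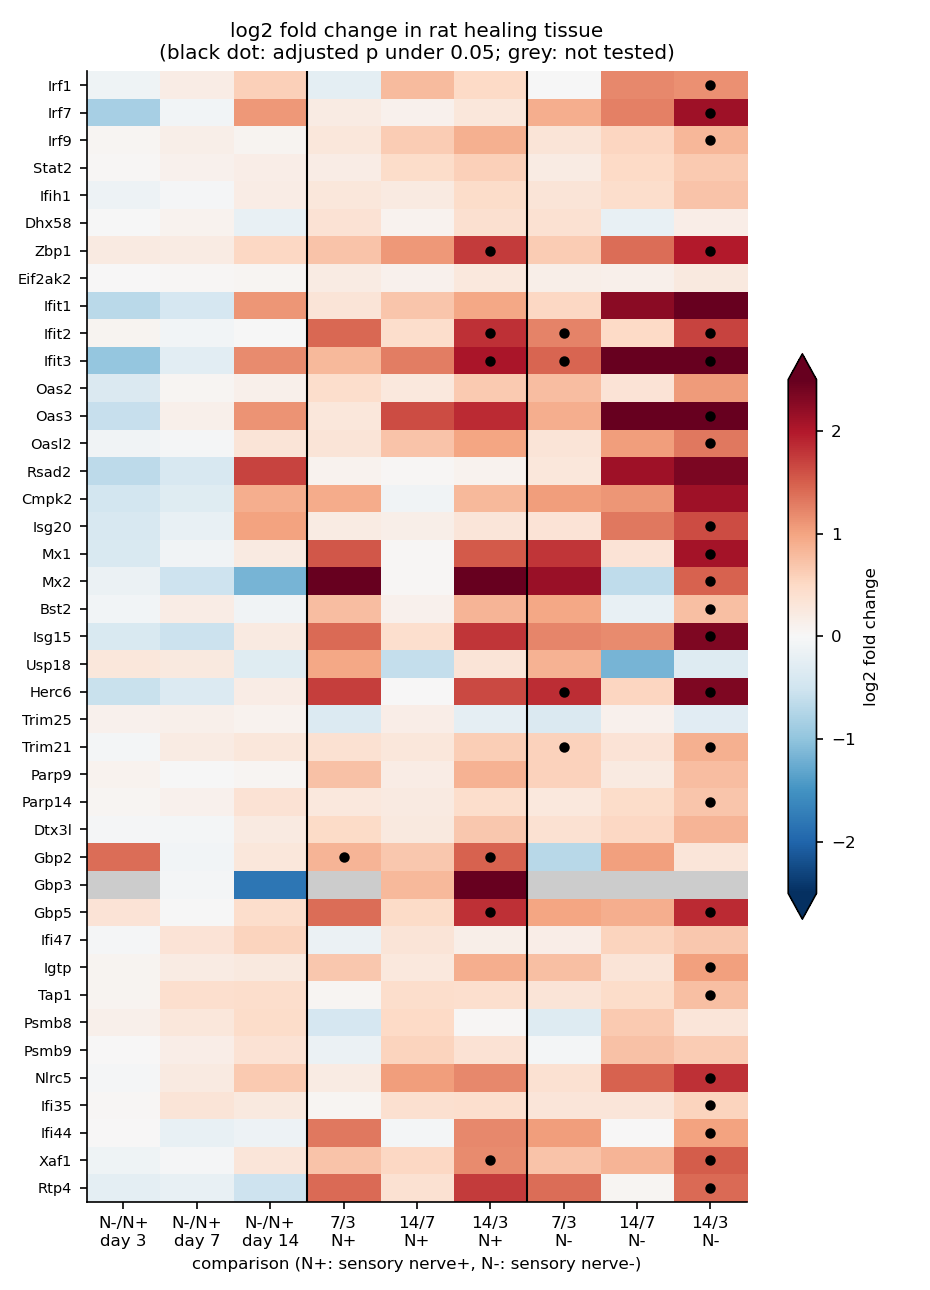
Log2 fold change (colour, red for higher and blue for lower) of each member tested (rows) in 9 comparisons of rat groups (columns), with a black dot for an adjusted p under 0.05 and grey where the gene was not tested. The 3 columns of transection hold no dots, and the dots gather in the columns of day 14 over day 3, 24 in sensory nerve- and 6 in sensory nerve+.

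The steps in between had fewer calls. From day 3 to day 7, 35 of 40 members were above 0 in each arm (54.0% of all genes in sensory nerve+ and 48.8% in sensory nerve-), with medians of 0.38 and 0.55. At an unadjusted p under 0.05 were 9 and 18 members, all higher. Of all genes, 24.8% and 28.8% were so in either direction, and 2176 of 15016 and 1862 of 14576 were so and higher. There was 1 call in sensory nerve+ rats, Gbp2, and 4 members rose in sensory nerve- rats (3.68% of all genes rose, 10.5% changed). With 1 rat left out, sensory nerve+ rats had 3 calls among 1547 genes without rat 3 of day 7, 1 among 882 without rat 2 of day 3 and 0 among 254 to 510 without any other. Their median was 0.18 without rat 4 of day 7, 0.62 without rat 3 of day 7 and 0.63 without rat 1 of day 3. The sensory nerve- rats had 2 without rat 3 of day 3 or rat 1 or 2 of day 7 (among 1052, 1359 and 1273 genes), 1 among 778 without rat 4 of day 7 and 0 among 0 to 686 without any other, and their median was 0.35 without rat 3 of day 3. From day 7 to day 14, 38 of 41 (46.6% of all genes) and 36 of 40 (49.2% of all genes) were above 0, with medians of 0.33 and 0.53, and 0 members passed in either arm, against 0.0202% and 0.0138% of all genes. At an unadjusted p under 0.05 were 4 and 11 members (9.42% and 23.5% of all genes, in either direction). Of these, 4 and 10 were higher, as were 774 of 14867 and 1800 of 14447 genes in all. DESeq2 called 1 and 7 members (2.19% and 13.8% of all genes). Without rat 2 of day 14, 9 members passed in sensory nerve- rats, among 814 genes, and the median there was 0.29 without rat 4 of day 14. In sensory nerve+ rats it was 0.12 without rat 3 of day 7, 0.14 without rat 3 of day 14, 0.20 without rat 2 of day 7 and 0.66 without rat 4 of day 7. With the library total, 22 of 40 members were above 0 in sensory nerve- rats, with a median of 0.013 against -0.397 for all genes, and 39 of 41 in sensory nerve+ rats, with a median of 0.35 against -0.042.

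The number of calls from day 3 to day 14 rested on single rats. Without rat 2 of day 14, 33 members passed in sensory nerve- rats, among 4346 genes, and 11 in sensory nerve+ rats, among 3133 genes. The sensory nerve- rats had 4 without rat 1 of day 3 (1620 genes), 11 without rat 1 of day 14 (2477 genes) and 7 or 8 without any of the others (1815 to 2863 genes). The sensory nerve+ rats had 0 without rat 1, 3 or 4 of day 14 or rat 3 of day 3 (0 to 2 genes), and 1 without rat 1 or 2 of day 3 (177 and 257 genes). The median log2 fold change stayed between 0.84 and 1.27 in sensory nerve- and between 0.68 and 0.95 in sensory nerve+ rats. With the library total, 3 members passed in sensory nerve- rats (8.2% of all genes) and their median was 0.58 against -0.421 for all genes, which left them 1.00 above all genes, compared with 1.09 with TMM.

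Beyond the list, the other genes of the pathway were read in the same comparisons. From day 3 to day 14 in sensory nerve- rats, 11 of 25 other interferon-stimulated genes rose and 0 fell (8.88% of all genes rose, 23.5% changed). Among those that rose were Cxcl9 (log2 fold change 2.83, SE 0.40, adjusted p = 0.00397), Oas1a (2.19, adjusted p = 0.00447) and Ccl5 (3.74, adjusted p = 0.0123). Of 26 tested in sensory nerve+ rats 1 rose, Gbp4 (log2 fold change 1.58, SE 0.35, adjusted p = 0.0487), where 2.69% of all genes rose and 5.78% changed. Cxcl9, a chemokine induced by interferon-gamma, rose from day 3 to day 7 in sensory nerve+ rats (4.15, SE 0.85, adjusted p = 0.0350) and in sensory nerve- rats (4.63, SE 0.97, adjusted p = 0.0259). Of 15 genes that induce interferon, 3 rose (Irf3, Mavs and Ddx58) and 2 fell (Cd14 and Cgas) from day 3 to day 14 in sensory nerve- rats, while in sensory nerve+ rats Cd14, the LPS co-receptor, fell (log2 fold change -2.06, SE 0.39, adjusted p = 0.0411) and 0 rose. Of 9 JAK-STAT genes, Irf2 rose in sensory nerve- rats (log2 fold change 0.87, SE 0.26, adjusted p = 0.0464). With so few genes, the calls among inducers of interferon and JAK-STAT genes were not told apart from the shares of all genes given above. Of 13 interferons and receptors, 6 were tested in each comparison of 2 groups of rats and 7 in the fits of all rats, and 0 passed in any of them.

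The summed levels of markers of other cell types are given for the same groups. B and plasma cell markers (5 of 6 in the tables) summed to 24.9–64.4 CPM on day 3 and 57.5–585 CPM on day 14 in sensory nerve+ rats, and to 4.61–85.7 and 99.4–611 CPM in sensory nerve- rats. Neutrophil markers (8 of 8) summed to 178–327 and 83.9–5912 CPM in sensory nerve+ rats, and to 61.6–763 and 148–4613 CPM in sensory nerve- rats. T and NK cell markers (8 of 8) summed to 131–226 and 214–406 CPM, and to 151–271 and 393–715 CPM. Macrophage markers (9 of 9) summed to 1171–2581 and 560–1232 CPM, and to 1237–2678 and 745–1669 CPM. Plasmacytoid dendritic cell markers (5 of 5) summed to 109–164 and 155–570.0 CPM in sensory nerve+, and to 121–164 and 152–379.5 CPM in sensory nerve- rats, and skeletal muscle markers (8 of 8) to 26.3–64.9 and 235–25129.8 CPM in sensory nerve+, and to 18.9–380.1 and 201–6869 CPM in sensory nerve- rats. The erythroid share was 4.28–15.3% and 1.08–15.6%, and 1.6–9.77% and 0.2–39.0%. The 5 plasmacytoid dendritic cell markers also summed to 67.9–73.0 CPM in the RAW264.7 macrophages, with Siglech at 0, so that their sum is not particular to that cell type. In the marker lists of the rats 1 marker, Klrb1 of the T and NK cell list, was at 0 in all rats of a group (sensory nerve+, both on day 3 and on day 7). The part of these cell types in the results was not tested.

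Rsad2 varied widely between rats of a group. It lay at 314, 86.7 and 83.9 CPM in the sensory nerve+ rats and at 205, 59.6, 30.8 and 124 CPM in the sensory nerve- rats on day 3. For day 7, Rsad2 lay at 32.1, 111, 4.27 and 524 CPM in the sensory nerve+ rats and at 51.3, 233, 21.8 and 205 CPM in the sensory nerve- rats, and on day 14 at 61.05, 43.3, 167 and 399 CPM in the sensory nerve+ rats and at 267, 4.79, 929.8 and 998 CPM in the sensory nerve- rats. The lowest rat of days 7 and 14 was rat 3 of sensory nerve+ and rat 2 of sensory nerve-, respectively, the same rats that had the lowest erythroid share, and Rsad2 did not pass the test in any comparison. Over the 23 rats its log2 level went with the summed level of the 4 erythroid genes (Pearson's r = 0.954, Spearman's rho = 0.961, permutation p = 1e-05 for each, the smallest that 100000 permutations can give, adjusted p = 0.00082 for r and 0.00109 for rho over the 328 relations of 41 members with 8 marker lists). After the group means had been removed, r was 0.956 and rho 0.923 (permutation p = 1e-05 for each, adjusted p = 0.00328), and without the 2 rats farthest from the median it was 0.931. All points share the library of the rat, so that both levels are parts of 1 total. Both levels were also multiplied by the same TMM factor of the rat. Among sensory nerve- rats of day 14, rat 3 had 39.0% of its counts in erythroid genes but a sum of 787179 CPM, and rat 2 had 0.2% and 1710 CPM. The factor thus raised all levels of rat 3 and lowered those of rat 2, which moves members and markers together. The relations were not computed with the library total. Cmpk2 and Isg20 had r = 0.822 and 0.857 within groups, and the median over the 41 members was 0.41. These relations were looked for after the values had been seen and were not computed for genes outside the list.

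**Figure D5:**
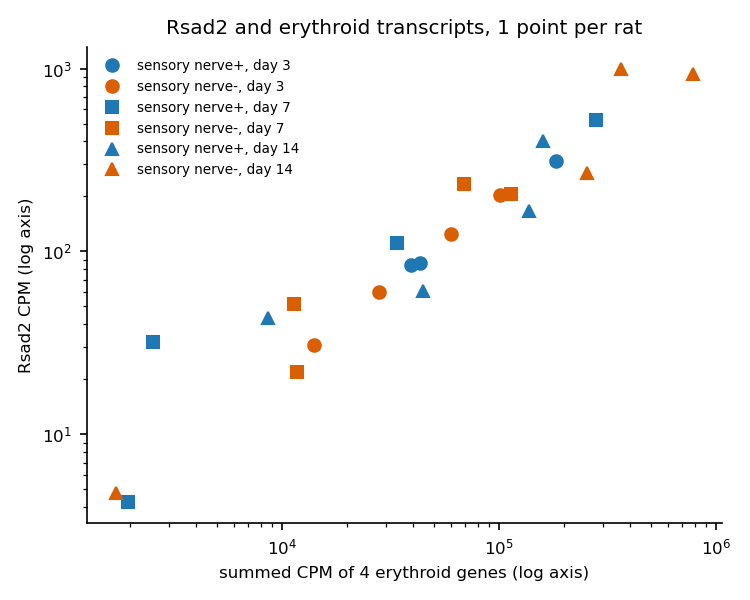
Level of Rsad2 in CPM (log y axis) against the summed CPM of the 4 erythroid genes Hba-a1, Hbb, Alas2 and Slc4a1 (log x axis), 1 point per rat, with colour for the arm and shape for the day. The 23 points follow 1 rising band (r = 0.954 on the log scale), with rat 2 of sensory nerve- on day 14 and rat 3 of sensory nerve+ on day 7 at its lower end.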

How the data were processed

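RNA-seq of 11 macrophage samples and 23 rats was analysed from deposited values. For the macrophages, reads were trimmed with cutadapt and aligned with STAR to mm10 per the submitters' processing notes, reads were counted with featureCounts per the study's methods, and the authors deposited a signal per gene and run, in which counts had been multiplied by 1 factor per run: 100% of the values above 0 were whole multiples of the step within a tolerance of 0.01. The 2 runs of a sample were summed. For the rats, reads were aligned with HISAT to mRatBN7.2 (Bowtie2 is also named), and the authors deposited an expected count per gene, of which 37.0% were whole; these were rounded. Expected counts can share reads between similar genes such as GBPs and IFITs.

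Macrophage values were scaled by TMM, and limma 3.58.1 was run on log2(CPM + 0.5) with a variance trend, since the signal is not a count. Rat counts were tested with edgeR 4.0.16 (filterByExpr, TMM, quasi-likelihood), each comparison on its own groups. The SE of an edgeR fold change is its size divided by the square root of F. Tests were two-sided, with Benjamini-Hochberg adjustment over all genes and a threshold of 0.05. CPM of rats were scaled over all 23. Alternatives were DESeq2 1.42.0, RLE factors, library totals, other filters and pseudocounts, single runs, a replicate block, 1 fit of all rats, and leaving out each sample. The fits were also run on simulated data with a single spread for all genes and no outlying samples. The rats here differ from that setting, so these runs do not show how the fits do on these data. 

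The members and the other gene lists were chosen with earlier results of these data known. Members are named with sample values by a rule: in the macrophages the 2 of each role with the smallest p, in each rat comparison the 3 with the smallest p, and Irf7, Isg15, Ifit1, Mx1, Gbp2 and Psmb8 in all. Rsad2 in the rats and other members whose values are given beside these were added after values were seen, as were the promoters that are printed, apart from that of Cmpk2. Nothing in the labels says that the macrophage samples were separate experiments, so that their p-values may measure technical spread. The members Oasl1, Samd9l, Gbp7 and Irgm1 were not matched by symbol in the rats and were not analysed there, and Gbp3 fell below the filter on low counts in 5 rat comparisons. Mouse positions are from GENCODE vM21 (GRCm38/mm10), and rat promoters are on another build than the rat counts. A gene of the JAK-STAT list is not reported by name here. R 4.3.3 and Python 3.11.15 were used.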

Additional observations from a re-analysis of the deposited data

Results flagged for a closer look

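Among 212 sets of a named member and a group of 4 to 6 samples, 12 had a highest or lowest sample that stood apart from the rest of its group by Dixon's criterion, and chance alone flags about 1 in 20 sets. In the macrophages, Ifit3 was at 555 CPM in LPS sample 2, against 502 to 517 in the others, and Isg20 at 97.2 CPM in LPS+CGRP sample 1, against 88.9 to 91.3. In the sensory nerve- group of day 14, rat 2 stood apart as the lowest for Zbp1 (3.55 CPM, the others 12.6 to 12.9) and Trim21 (20.1 CPM, the others 43.3 to 45.5), and rat 4 as the highest for Ifit1 (283 CPM, the others 9.02 to 50.7) and Gbp2 (214 CPM, the others 68.4 to 76.2). In the sensory nerve- group of day 7, rat 1 was the highest for Ifit2 (73.3 CPM, the others 30.04 to 33.1), Ifi44 (57.7 CPM, the others 28.5 to 32.5) and Herc6 (60.3 CPM, the others 16.2 to 21.6), and rat 4 for Isg20 (12.2 CPM, the others 8.69 to 9.22). In the sensory nerve+ group of day 14, rat 3 was the highest for Dhx58 (23.1 CPM, the others 8.88 to 9.56) and Usp18 (35.04 CPM, the others 10.6 to 12.6).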

How the results depend on the processing

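Over the 119 tests of named members, 2002 refits stayed on the same side of the threshold, 107 lost a call, 57 gained one and 0 that passed turned sign. Members without a call turned sign in some refits. For LPS+CGRP over LPS the number of members past the threshold, 1 as reported, was 0 with edgeR on recovered reads (0.0% of all genes) and with no filter (0.00813%). It was 16 with DESeq2 (0.54% of all genes), 5 with library totals (0.0815%), 5 with run 1 alone (0.0563%) and 7 with a filter on mean CPM (0.117%). With 1 sample left out it was 0 to 7, among 0 to 25 genes. For the rats, DESeq2 gave 8 and 13 members (among 2808 and 3217 genes) from day 3 to day 7 in sensory nerve+ and sensory nerve-, 1 and 7 (among 325 and 1991) from day 7 to day 14, and 20 (among 3375) in sensory nerve+ from day 3 to day 14. Library totals gave 0 and 1 from day 3 to day 7 (3.86% and 8.36% of all genes) and 3 from day 3 to day 14 in sensory nerve- (8.2%). No filter gave 0 in both arms from day 3 to day 7 (4.38% and 6.09% of all genes). The fit of all rats gave 0 in sensory nerve+ from day 3 to day 7 (6.55% of all genes) and 1 in sensory nerve- from day 7 to day 14 (5.85%). With 1 rat left out, the number was 0 in each comparison of the arms, pooled and interaction included, among 0 genes. It was 0 to 3, 0 and 0 to 11 in sensory nerve+ (day 7 over 3, 14 over 7 and 14 over 3), among 254 to 1547, 0 to 28 and 0 to 3133 genes. In sensory nerve- it was 0 to 2, 0 to 9 and 4 to 33, among 0 to 1359, 0 to 814 and 1620 to 4346 genes. The cause of these shifts was not tested.

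In 0 of 10 comparisons did every same-numbered pair deviate together with a correlation over 0.1. The lowest pair correlation of a comparison was between -0.385 and 0.031. Any low pair fails this rule, so it cannot show whether replicate numbers pair the samples. The mean correlation of same-numbered pairs was below that of other pairs from day 3 to day 14 in sensory nerve+. The same held from day 3 to day 7 and from day 7 to day 14 in sensory nerve-. In the other comparisons it was above, with 0.168 against -0.058 between the arms on day 7. With the replicate number as a block, 10 members passed in the macrophages (0.208% of all genes). From day 3 to day 7, 0 passed in both arms (0.812% of all genes in sensory nerve+ and 0.0137% in sensory nerve-). From day 3 to day 14, 0 passed in sensory nerve+ (0.0% of all genes) and 7 of 40 in sensory nerve- (16.3% of all genes). In the other comparisons 0 passed (0.0% of all genes). The block moved the median of the members from -0.007 to 0.156 on day 7, with 31 of 41 above 0 in place of 20, and from 0.38 to 0.104 from day 3 to day 7 in sensory nerve+, with 24 of 40 in place of 35. Depth limits Gbp3 in the rats (0 to 1.75 CPM) and Ifnb1 in the macrophages.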

Other observations

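Levels of the members also went with those of other cell types over the 23 rats, after the group means had been removed, in relations looked for after the values had been seen and given here as counts past an adjusted permutation p of 0.05 over 328 relations. Neutrophil markers had 5 such members of 41 and a median r of 0.30, T and NK cell markers 3 and 0.25, erythroid markers 3 and 0.41, macrophage markers 2 and 0.16, and B and plasma cell markers 1 and 0.20. Plasmacytoid dendritic cell, skeletal muscle, and fibroblast and osteoblast markers had 0 each, with medians of 0.04, 0.05 and -0.05. The relations were not computed for genes outside the list, so these counts have no share of all genes beside them. Members and markers of a rat also share its TMM factor. The counts do not show a trait of the members. In the rat promoters, the ISRE core was found in 4 of 5 GBPs and IRGs and 2 of 2 sensors, but in 1 of 4 regulators, of which 2 held a GAS.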
